A study of Mus musculus with 82 samples.

Results

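The comparison described here set vascular smooth muscle cells from the mouse aorta (aVSMC) incubated for 48 h with EGF and U46619 together (EGF+U46619) against cells incubated without either. It covers 10 of the 82 RNA-sequencing libraries of the study, 5 control and 5 EGF+U46619, which were chosen by their labels. The cultures were paired by replicate number, and the 5 pairs are called culture sets 1 to 5. Of 55401 genes in the count table, 48326 lie outside chromosomes 9, X, Y and MT, whose 7075 genes are listed at 0 in every library of the batch. Of these, 14634 had enough counts to be tested.

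The cells were primary cultures from the aortas of C57BL/6 mice, passaged in medium with serum and EGF, and kept without serum or supplements for 24 h before the incubation. EGF was added at 10 µg/L and U46619, a stable analog of thromboxane A2, at 1 µM. The same batch held cultures with EGF alone and with U46619 alone, so each culture set consisted of 4 dishes (control, EGF, U46619 and EGF+U46619), all of the same cell isolate according to the methods. According to the methods every replicate had its own mouse, whereas the labels give sets 1 and 4 the same mouse number. The total count was 21608793 to 25773639 per control library and 21645685 to 32071067 per EGF+U46619 library. Levels are given in FPM, counts per 1000000 of the TMM-scaled library size, which depend on transcript length and are compared here only within a gene.

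EGF binds EGFR, a receptor tyrosine kinase that signals through the RAS and ERK cascade, AKT and STAT factors. Thromboxane A2 binds TP, a receptor coupled to Gq and G12/13 proteins that raises intracellular calcium, activates RhoA and contracts smooth muscle. In the vessel wall, smooth muscle cells can leave a contractile state, marked by actin and myosin isoforms of smooth muscle, for a state in which they divide, migrate and remodel the matrix. Both receptors are known to take part in that transition after vascular injury.

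The marker genes of smooth muscle were present in all 10 cultures. Acta2, the actin isoform of smooth muscle, was among the most abundant of them, at 3403, 1487, 3947, 7328 and 1639 FPM in the control cultures of sets 1 to 5. The summed level of the smooth muscle markers ranged from 1984 to 9126 FPM in control cultures, although Tagln and Cnn1, which lie on chromosome 9, are listed at 0. Endothelial markers differed between the sets, with a summed level of 1158 FPM in set 1, 20.8 FPM in set 5 and 157.6 to 265 FPM in the other control cultures. Of 10 macrophage markers, Ptprc, Adgre1, Tyrobp and C1qa reached at most 0.124 FPM in any of the 10 cultures, whereas Lyz2 (35.4 to 119 FPM), Csf1r (4.92 to 18.0 FPM) and Cd14 (2.86 to 17.8 FPM) were present in control. Markers of adventitial fibroblasts were present throughout, at a summed 2174 to 5026 FPM in control cultures.

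After 48 h, EGF+U46619 changed the level of 3776 genes (DEG, 25.8% of 14634 tested), of which 2017 were higher (13.8%) and 1759 lower (12.0%). To count as DEG, a gene needed an FDR under 0.05 by edgeR and by DESeq2 as well as 5 or more FPM on average in either group. Most changes were small, the median size of the log2-fold change being 0.42 among the DEG. Large decreases outnumbered large increases: 226 DEG fell by at least 1 on the log2 scale and 110 rose by as much, and 40 fell and 11 rose by at least 2. The median log2-fold change over all genes tested was -0.00076.

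The response had the same direction in all 5 culture sets for 2728 DEG (72.2%), compared to 27.6% of all genes tested, DEG included. The DEG were called on these same differences within sets, which favours such agreement. Its size differed between the sets, since the DEG that were higher had a median log2 ratio of 0.64 in set 3 and of 0.27 to 0.40 in the others. The ranges of FPM in the 2 groups did not overlap for 545 of all genes tested (3.72%). Of these, 436 were DEG, which were called on the same values. The count of DEG rested on the pairing, as it fell to 369 without the culture set in the model and was 2222 with the mouse number of the labels in its place. Leaving out 1 set at a time gave 2129 (without set 3) to 3875 DEG, and 1899 genes were DEG in every such fit.

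The DEG with the largest increase was Spp1, which encodes osteopontin, a secreted phosphoprotein that binds integrins and inhibits mineral growth. It was measured at 52.5, 38.3, 38.0, 21.4 and 32.0 FPM in the control cultures of sets 1 to 5 and at 139, 1105, 706, 1031 and 869 FPM with EGF+U46619. Every EGF+U46619 culture lay above every control culture, and set 1 responded least. The log2-fold change was 4.22 ± 0.44 (SE, n = 5 sets, FDR = 4.22e-06), a 18.7-fold increase. Il1rl1, the receptor of interleukin 33, followed with 0.572, 2.04, 1.06, 3.55 and 5.31 FPM in control and 1.19, 28.6, 17.9, 33.9 and 55.3 FPM with EGF+U46619 (log2-fold change 3.38 ± 0.30). The groups overlapped, although Il1rl1 was higher in every set.

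**Figure D1:**
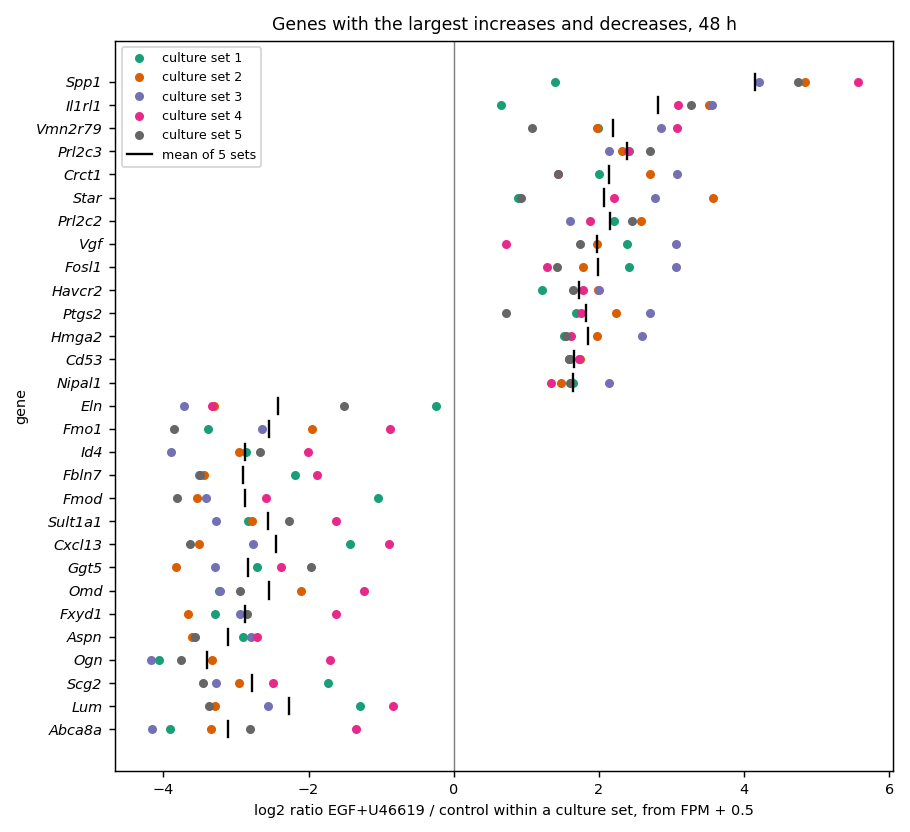
Log2 ratio of EGF+U46619 to control within each of the 5 culture sets (coloured points, from FPM + 0.5) for 14 of the 15 DEG with the largest increases and the 15 with the largest decreases, with the mean of the sets as a vertical line. All points of a gene lie on 1 side of 0, as the choice of genes required, and for Spp1 and Il1rl1 set 1 lies nearest to 0.

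Among the other strong increases were the proliferin genes Prl2c3 and Prl2c2, members of the prolactin family. These 2 genes are near-identical copies, and because reads with several alignments were counted their values cannot be separated. Prl2c3 rose from 19.1, 24.9, 22.8, 56.1 and 8.88 FPM to 104, 126, 102, 297 and 60.5 FPM in sets 1 to 5, with no overlap (log2-fold change 2.43 ± 0.13, FDR = 1.44e-08). Hmga2, a chromatin protein of embryonic and dividing cells, was at 65.8, 57.5, 36.4, 126 and 45.7 FPM in control and 188.4, 227, 222, 386 and 134 FPM with EGF+U46619. Its groups were again fully separate, at a 3.60-fold increase. Star, which carries cholesterol into mitochondria, rose by 2.28 ± 0.35 on the log2 scale, and its highest culture with EGF+U46619 (set 2) was at 102 FPM while the other 4 lay between 3.80 and 23.7 FPM. Vmn2r79, annotated as a vomeronasal receptor gene of a large multigene family (2.70 ± 0.29), Crct1 (2.40 ± 0.29), Havcr2 (1.93 ± 0.15), Cd53 (1.80 ± 0.14), Nipal1 (1.77 ± 0.16) and the neuropeptide precursor Vgf (4.29-fold) were also among the 15 genes with the largest increases, all at low levels of at most 58.6 FPM in any culture.

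At the receptors, the gene of TP was lower and that of EGFR was not called. Tbxa2r was measured at 64.5, 74.7, 93.0, 88.6 and 30.3 FPM in the control cultures and at 36.5, 29.6, 22.1, 34.5 and 7.81 FPM with EGF+U46619. It was lower in every set, and only the control culture of set 5 lay within the range of the other group (log2-fold change -1.50 ± 0.15, FDR = 2.85e-06). Egfr, with 53.0, 118, 61.1, 42.2 and 121 FPM in control and 31.5, 68.2, 99.2, 66.7 and 168.4 FPM with EGF+U46619, was lower in sets 1 and 2 and higher in sets 3 to 5 (log2-fold change 0.06 ± 0.21, FDR = 0.85). Agtr1a, an angiotensin II receptor gene, had a log2-fold change of -2.23. Its mean was below 5 FPM in each group, so it could not be a DEG by this definition. Of 7 EGFR ligands tested, 2 rose (1 without set 1, 2 or 3) and 0 fell, and the median of the list was -0.06. Of the list 28.6% were called, against 25.8% of all genes tested (13.8% higher). Ereg rose by 0.56 ± 0.13 and Hbegf by 0.38 ± 0.12. Hbegf was lower in sets 4 and 5, at 68.6 and 36.1 FPM in control and 66.6 and 32.7 FPM with EGF+U46619.

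Genes that restrain the ERK cascade were mostly higher. Of 17 such genes tested, 12 rose, 1 fell and 4 were not called, with a median log2-fold change of 0.55. Errfi1, a direct inhibitor of the EGFR kinase, was measured at 34.3, 57.1, 29.6, 31.5 and 84.9 FPM in control and 36.8, 241, 131, 103 and 195 FPM with EGF+U46619. It rose little in set 1 and strongly in the other sets (1.46 ± 0.21). The phosphatase genes Dusp10 and Dusp4 rose by 1.13 ± 0.14 and 1.10 ± 0.17. Spry1, another inhibitor of the cascade, went the other way in all 5 sets, from 122, 62.9, 53.6, 55.8 and 29.8 FPM to 43.4, 19.985, 14.0, 11.8 and 10.6 FPM (-1.77 ± 0.21).

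Transcription factors of the immediate early class were higher or not called. Among 17 AP-1 and EGR factors, 9 rose (4 without set 3) and 0 fell, with a median of 0.46. Fosl1, an AP-1 subunit that responds to lasting ERK activity, rose from 1.45, 5.38, 2.17, 9.83 and 5.47 FPM to 9.88, 19.6, 21.7, 24.7 and 15.4 FPM without overlap, 1 culture of the control group and 1 of the EGF+U46619 group being almost equal (2.03 ± 0.24). Jun rose by 0.63 ± 0.11, Ier3 by 0.61 ± 0.16 and Maff by 0.58 ± 0.15. In set 5, only 7 of the 17 genes of this list were above their control, compared to 13 to 17 in the other sets. Myc, a driver of growth and ribosome production, was at 23.8, 37.6, 20.4, 38.2 and 54.7 FPM in control and 41.8, 72.0, 63.1, 61.6 and 93.2 FPM with EGF+U46619 (0.96 ± 0.13). Of 13 Kruppel-like factors, 0 rose and 3 fell (2 without set 3, 4 or 5), with a median of -0.06. Of the list 23.1% were called, against 25.8% of all genes tested (12.0% lower). Klf15 fell by 0.89 ± 0.14, Klf2 by 0.56 ± 0.11 and Klf11 by 0.37 ± 0.12.

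Both cyclooxygenase genes and a phospholipase gene of prostanoid synthesis were higher, while most of the list was not called. Of 15 genes of prostanoid synthesis and reception 3 rose, 1 fell (Tbxa2r) and 11 were not called, with a median of -0.03. The 26.7% called were close to the 25.8% of all genes tested. Ptgs2, the inducible cyclooxygenase, was measured at 7.89, 8.58, 5.78, 10.7 and 53.3 FPM in control cultures and 26.4, 42.2, 40.2, 37.1 and 88.3 FPM with EGF+U46619. Set 5 was the highest in both groups, and its control lay above 4 of the EGF+U46619 cultures (1.88 ± 0.22). The constitutive Ptgs1 rose by 1.09 ± 0.16 and Pla2g4a, which frees arachidonic acid, by 0.63 ± 0.09.

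Regulators of clotting and of the provisional matrix changed in both directions. Plaur, the urokinase receptor, rose from 21.8, 23.1, 15.8, 47.1 and 34.8 FPM to 78.7, 77.3, 91.4, 106 and 61.0 FPM, with no overlap (1.61 ± 0.20). Thbs1, an adhesive glycoprotein, rose by 1.07 ± 0.23, but it was lower in set 5 (3381 FPM in control, 2493 FPM with EGF+U46619). In contrast Gas6, the ligand of the receptor kinase AXL, fell from 1925, 2064, 1868, 1050.3 and 1128 FPM to 618, 209, 320.0, 302 and 197 FPM, the groups being far apart (-2.35 ± 0.19, FDR = 6.26e-07), while Axl itself rose by 0.79 ± 0.11. Of 18 genes of fibrinolysis and coagulation, 4 rose and 7 fell (4 without set 2), and of 19 provisional matrix and matricellular genes 3 rose (5 without set 4) and 8 fell.

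Integrin subunit genes rose more often than they fell, in 6 and 1 of 17 tested. Itgb3, a subunit that binds osteopontin and vitronectin, was measured at 39.5, 25.5, 11.4, 26.0 and 7.74 FPM in control and 68.8, 40.3, 28.4, 45.7 and 11.5 FPM with EGF+U46619 (0.83 ± 0.12). It was higher in every set, although the sets themselves differed more than the groups. Itga2 rose by 0.76 ± 0.16, Itga6 by 0.73 ± 0.17 and Itgav by 0.64 ± 0.12. Itga1, a collagen-binding subunit, fell by 3.11-fold (-1.64 ± 0.18).

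Many genes of the extracellular matrix were lower, among them the small leucine-rich proteoglycans, which bind collagen fibrils and growth factors. Of 11 tested, 0 rose, 9 fell and 2 were not called, and the median log2-fold change was -2.09. Ogn (osteoglycin) was measured at 233, 79.7, 125, 27.1 and 88.3 FPM in control and 13.4, 7.48, 6.45, 7.93 and 6.10 FPM with EGF+U46619. The groups did not overlap (-3.48 ± 0.39, FDR = 8.88e-06), and the decrease was 11.2-fold. Aspn (asporin) fell from 170.7, 81.2, 41.3, 34.9 and 6.83 FPM to 22.4, 6.23, 5.54, 4.93 and 0.120 FPM (-3.20 ± 0.19). Fmod (fibromodulin) fell by 2.97 ± 0.34 on the log2 scale, Lum (lumican) by 3.66 ± 0.44 and Dcn (decorin) by 1.15 ± 0.31. Dcn varied most between the cultures, at 156.5, 504, 272, 44.7 and 1786 FPM in control and 108, 81.5, 83.4, 49.2 and 878 FPM with EGF+U46619, and was not lower in set 4.

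Collagens and elastic fibre genes were lower in part. Of 23 collagen genes 0 rose and 8 fell, with a median of -0.46. Col6a1 fell from 1875, 1682, 674, 605 and 905 FPM to 373, 248, 227, 171.3 and 673 FPM (-1.81 ± 0.26), and its partner Col6a2 by 1.66 ± 0.26. Both decreases were smallest in set 5. Col3a1, a fibrillar collagen of the vessel wall, was at 1591, 9886, 622, 588 and 757 FPM in control and 348, 2258, 229, 235 and 756 FPM with EGF+U46619 (-1.39 ± 0.26), almost equal in set 5. Eln (elastin) fell from 248, 37.3, 122, 114 and 3.30 FPM to 209.6, 3.31, 8.87, 10.9 and 0.837 FPM (-2.66 ± 0.42), with the smallest change in set 1, where it stayed high. Of 21 elastic fibre genes 7 fell and 4 rose, among the latter Ltbp1 (0.88 ± 0.16), a binding protein of latent TGF-beta.

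Genes that lie next to each other fell together at the 2 places given here, found after the values were seen by searching for at least 3 neighbouring tested genes that were all DEG with an absolute log2-fold change of at least 1 in the same direction. The search covered 336 such DEG. Ecm2, Aspn, Omd and Ogn, all of the leucine-rich proteoglycan group, lie on chromosome 13 between positions 49504810 and 49624501 (mm10) and fell by 2.09, 3.20, 3.19 and 3.48 on the log2 scale. C1ra, C1s1, C1rb and C1s2, which encode complement proteases, lie on chromosome 6 between 124512405 and 124636085 and fell by 1.68, 1.49, 1.95 and 1.44, but are near-identical copies in pairs, so that their counts are not independent.

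Several groups of secreted proteins and their enzymes were lower as well. Among 17 complement genes 7 fell and 1 rose. C3, the central component, was at 62.9, 511, 819, 100.2 and 2823 FPM in control and 23.4, 43.6, 444, 49.5 and 1786 FPM with EGF+U46619 (-1.55 ± 0.35), lower in every set but with a larger spread between sets than between groups. Among 28 matrix proteases and inhibitors 12 fell and 2 rose, with Adamts1 (-1.08 ± 0.22) and Adamts6 (0.99 ± 0.22) as the largest change in each direction among these DEG. Of 12 genes of the IGF system 5 fell and 1 rose. Igfbp4, which holds IGF away from its receptor, fell by 1.53 ± 0.20 and Igf1 by 1.16 ± 0.23.

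Most retinoid enzymes and some WNT modulators were lower. Of 17 genes of retinol and retinoic acid metabolism 10 fell and 1 rose, with a median of -0.47. Adh1, an alcohol dehydrogenase that oxidises retinol, fell from 52.9, 26.6, 19.4, 8.07 and 17.6 FPM to 9.98, 2.06, 3.34, 5.36 and 1.91 FPM (-2.50 ± 0.30), and Aldh1a3, which forms retinoic acid, by 1.88 ± 0.27. Of 23 WNT ligands and secreted antagonists 6 fell, 0 rose and 17 were not called. The 26.1% called were close to the 25.8% of all genes tested (12.0% lower). Rspo2, which enhances WNT signals, fell from 187.4, 35.8, 80.3, 53.5 and 66.7 FPM to 37.9, 6.58, 21.0, 13.8 and 10.5 FPM (-2.26 ± 0.16). Among 13 transporters of the ABCA8 and cholesterol efflux group 5 fell and 1 rose, and Abca8a had the largest decrease of all DEG, from 9.91, 10.9, 24.6, 1.32 and 27.8 FPM to 0.190, 0.623, 0.910, 0.217 and 3.55 FPM (-3.88 ± 0.40). With EGF+U46619 it was below 1 FPM in 4 of 5 cultures.

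BMP and TGF-beta signals were affected on several levels, with 9 of 31 genes higher and 13 lower. Id4 and Id2, inhibitors of basic helix-loop-helix factors and targets of BMP signals, fell by 2.94 ± 0.21 and 1.34 ± 0.21. Id4 fell from 181.5, 75.7, 122, 47.1 and 44.5 FPM to 24.4, 9.27, 7.74, 11.3 and 6.54 FPM. The antagonist Grem1, which binds BMP ligands, rose by 1.15 ± 0.22. Fst (follistatin), an antagonist of activin, fell from 143, 106, 113, 86.6 and 109 FPM to 48.2, 30.2, 41.8, 36.4 and 44.5 FPM with no overlap (-1.47 ± 0.10), and the ligand Bmp4 fell by 0.89 ± 0.19.

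Of 21 regulators of bone formation and calcification 5 rose and 5 fell (3 without set 1), with a median of -0.49. Only the members that rose are named here. Beside Spp1, the members that rose were Enpp1, which produces pyrophosphate, by 1.33 ± 0.28, the phosphate transporter Slc20a2 by 0.80 ± 0.07, Ank, needed for the export of pyrophosphate, by 0.77 ± 0.11, and Slc20a1, a further phosphate transporter gene, by 0.44. Slc20a2 was at 48.1, 53.1, 51.1, 55.3 and 63.5 FPM in control and 87.5, 80.5, 101.1, 100.99 and 100.1 FPM with EGF+U46619, without overlap. Of 30 interleukin, chemokine and related genes 7 rose (3 without set 3, 4 without set 1) and 2 fell (4 without set 4). Il6 was at 1.53, 5.60, 7.95, 3.47 and 24.3 FPM in control and 5.04, 20.3, 17.0, 5.45 and 28.3 FPM with EGF+U46619 (1.05 ± 0.18), while the chemokine gene Cxcl13 fell by 3.01 ± 0.45.

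Genes of the contractile apparatus fell more often than they rose after 48 h. Of 20 contractile and SRF target genes 10 fell, 3 rose (0 without set 1 or set 3, 1 without set 2) and 7 were not called, with a median of -0.34. Acta2 fell to 2883, 1055, 3377, 4075 and 363 FPM with EGF+U46619 from the control levels given above (-0.77 ± 0.21, FDR = 0.0114). It was lower in all sets, most in set 5, and it was a DEG in 3 of the 5 fits that left out 1 set. Myh11, the myosin heavy chain of smooth muscle, was at 76.3, 11.0, 187.7, 237 and 2.51 FPM in control and 25.2, 3.62, 157.9, 123 and 0.478 FPM with EGF+U46619 (-1.16 ± 0.20). It was lower in every set, although its level in control ranged from 2.51 to 237 FPM between the sets. Mylk, the kinase of the myosin light chain, fell by 1.34 ± 0.23, Synpo2 by 1.21 ± 0.14 and Myl9 by 0.94 ± 0.17.

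Taken as 1 value per culture, the summed smooth muscle markers were lower with EGF+U46619 in 5 of 5 sets, by 0.80 ± 0.72 on the log2 scale (SD, n = 5, exact two-sided sign-flip permutation test, p = 0.0625, the smallest that 5 sets allow). All 6 of these markers that could be tested fell, but Acta2 made up most of the sum in every culture (3403 of 4296 FPM in the control of set 1). The summed markers of adventitial fibroblasts were lower in 5 of 5 sets too, by 0.58 ± 0.11 (n = 5, exact p = 0.0625), and 10 of 14 fell and 0 rose. Several of them are matrix genes counted above (Lum, Dcn, Col14a1). None of 9 endothelial markers was called, and their sum was lower in 3 sets and higher in 2. Of the few markers of other cells that could be tested, 1 of 4 macrophage genes rose (Csf1r, 0.68) and 1 fell (Lyz2, -1.27), 1 of 5 pericyte and 1 of 2 Schwann cell genes fell, 1 of 5 epithelial and mesothelial genes rose and 1 fell, and 0 of 5 adipocyte genes were called. The summed markers of macrophages (58.4 to 142 FPM in control, 40.9 to 75.7 FPM with EGF+U46619) and of Schwann cells (14.8 to 58.8 FPM and 6.94 to 36.0 FPM) were lower in 5 of 5 sets, and those of epithelial and mesothelial cells (19.5 to 120.3 FPM and 28.2 to 281 FPM) were higher in 5 of 5. Lyz2 made up most of the macrophage sum in every control culture (77.4 of 87.5 FPM in set 1), so the macrophage markers did not fall together. From control to EGF+U46619 the medians of Cd68 (1.49 to 4.43 FPM) and Csf1r (11.9 to 19.6 FPM) went up and that of Cd14 (7.95 to 4.21 FPM) went down. The part of other cell types in the results was not tested. In bulk cultures fewer cells of a type and less RNA per cell cannot be told apart.

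Receptors and effectors of vasoactive mediators were called in 7 of 33 cases (21.2%, against 25.8% of all genes tested), 6 lower and 1 higher. The alpha-1 adrenergic receptor genes Adra1b and Adra1d fell by 1.57 ± 0.19 and 0.77 ± 0.11. Gucy1a1 and Gucy1b1, which encode the subunits of the nitric oxide receptor guanylate cyclase, fell by 2.65 ± 0.34 and 0.66 ± 0.17, and Pde5a, which degrades its product cGMP, by 0.83 ± 0.14. Gucy1a1 was at 19.1, 3.24, 5.27, 1.58 and 0.683 FPM in control and 3.14, 0.234, 0.531, 0.341 and 0.439 FPM with EGF+U46619. Its control culture of set 1 stood far above the others.

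**Figure D2:**
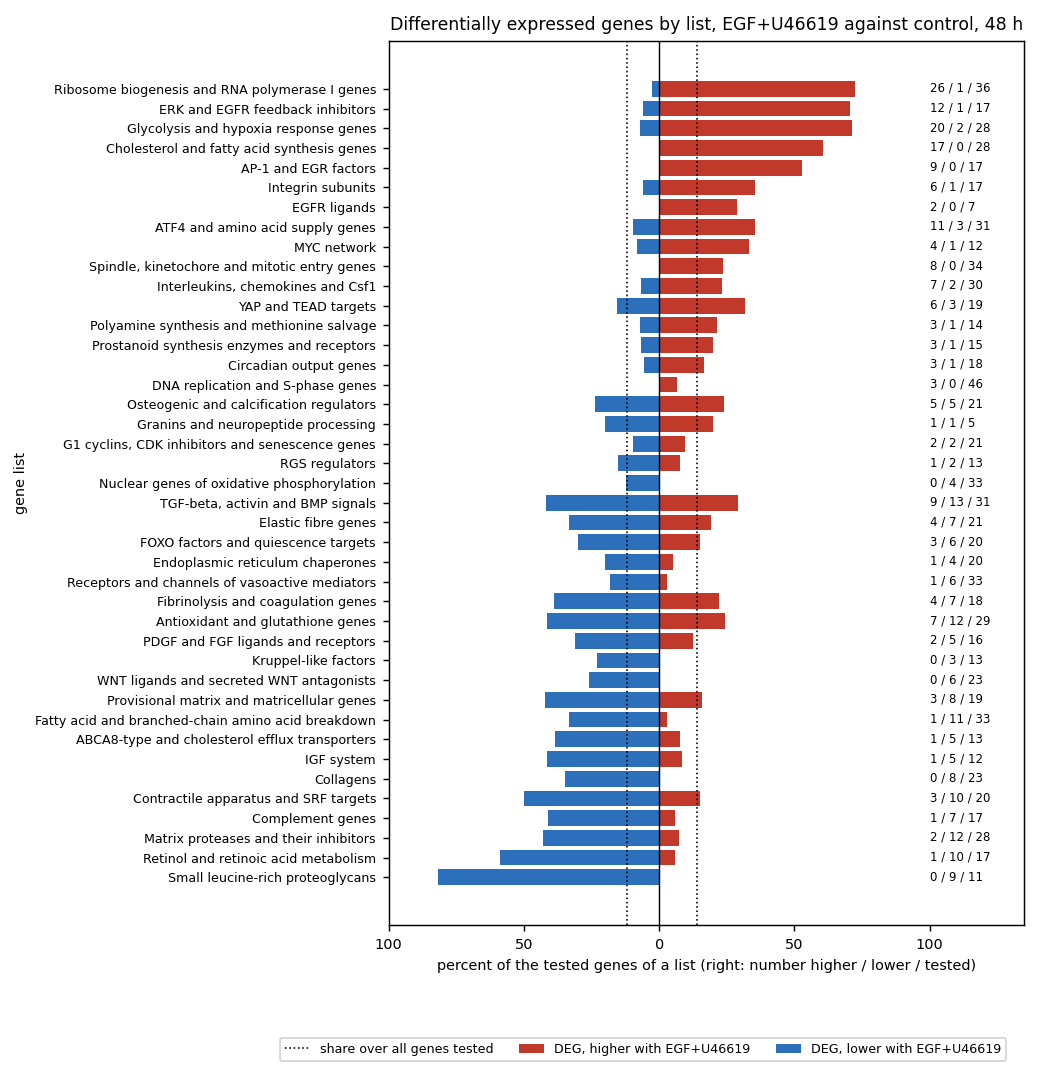
Share of the tested genes of each of 41 gene lists that were DEG and higher (bars to the right) or lower (bars to the left) after 48 h with EGF+U46619, with the numbers of higher, lower and tested genes at the right and the shares over all genes tested (13.8% and 12.0%) as dotted lines. Ribosome biogenesis, glycolysis, ERK feedback and cholesterol synthesis lie at the upper end and the small leucine-rich proteoglycans at the lower end.

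Genes of glucose metabolism were mostly higher. Of 28 genes of glycolysis and the hypoxia response 20 rose, 2 fell and 6 were not called, with a median of 0.52, and the median was above 0 in each culture set (0.25 to 0.77). Slc2a1, the glucose transporter GLUT1, was at 60.2, 84.6, 50.7, 67.6 and 62.2 FPM in control and 119, 192, 144, 137 and 112 FPM with EGF+U46619, with no overlap (1.11 ± 0.11). Hk2, which traps glucose in the cell, rose from 30.9, 33.9, 19.7, 42.5 and 32.8 FPM to 85.1, 74.5, 72.2, 67.6 and 50.9 FPM, again without overlap (1.14 ± 0.14). Slc16a3, which exports lactate, rose by 1.32 ± 0.20, and Egln3, an oxygen sensor that is itself induced by HIF, by 0.89 ± 0.11. Gapdh, a glycolytic enzyme often used as a reference gene, was at 188.4, 246, 164.7, 239 and 163.6 FPM in control and 266, 494, 280.1, 293 and 251 FPM with EGF+U46619 (0.64 ± 0.12, FDR = 5.91e-04). Among other reference genes, Hsp90aa1 and Hsp90ab1 rose by 0.45 ± 0.08 and 0.37 ± 0.09, and Eef2 was not called (0.26 ± 0.10, FDR = 0.0523). The members that fell were Adm (-0.96 ± 0.19), which encodes the vasodilator adrenomedullin, and Ndrg1 (-0.83).

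The promoters of 4 of these genes are shown because the members moved together and hypoxia-inducible factors are known to bind the core ACGTG. Each sequence runs 5′ to 3′ on the strand of the gene from 250 bases before to 50 after its RefSeq start (GRCm38.p6, the build that mm10 names), and capitals mark ACGTG on either strand (CACGT where it is read from the other strand).
Slc16a3, chr11:120948817-120949116, plus strand: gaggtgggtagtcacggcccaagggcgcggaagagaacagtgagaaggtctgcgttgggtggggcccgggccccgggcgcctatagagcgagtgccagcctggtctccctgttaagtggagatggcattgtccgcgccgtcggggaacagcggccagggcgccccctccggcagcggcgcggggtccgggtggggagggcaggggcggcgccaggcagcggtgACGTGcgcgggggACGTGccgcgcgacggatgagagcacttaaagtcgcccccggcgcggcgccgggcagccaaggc
Hk2, chr6:82774405-82774704, minus strand: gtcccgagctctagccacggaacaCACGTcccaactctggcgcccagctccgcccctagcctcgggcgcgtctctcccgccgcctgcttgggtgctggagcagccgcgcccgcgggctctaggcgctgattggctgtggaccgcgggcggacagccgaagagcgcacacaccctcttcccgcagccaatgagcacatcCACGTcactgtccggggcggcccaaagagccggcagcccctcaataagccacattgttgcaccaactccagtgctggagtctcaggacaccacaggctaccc
Slc2a1, chr4:119108495-119108794, plus strand: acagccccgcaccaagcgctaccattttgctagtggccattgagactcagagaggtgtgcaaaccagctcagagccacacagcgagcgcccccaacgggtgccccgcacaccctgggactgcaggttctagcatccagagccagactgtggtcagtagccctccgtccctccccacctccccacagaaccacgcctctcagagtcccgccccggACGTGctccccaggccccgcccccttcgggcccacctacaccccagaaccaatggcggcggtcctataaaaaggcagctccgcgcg
Egln3, chr12:54203825-54204124, minus strand: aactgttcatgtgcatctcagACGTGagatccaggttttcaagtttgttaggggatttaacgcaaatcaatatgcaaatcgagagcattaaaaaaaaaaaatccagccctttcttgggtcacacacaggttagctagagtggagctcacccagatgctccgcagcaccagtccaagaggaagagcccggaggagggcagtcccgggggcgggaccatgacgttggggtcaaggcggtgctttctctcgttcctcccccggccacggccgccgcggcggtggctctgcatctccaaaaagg

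The core begins 27 and 14 bases before the start in Slc16a3, 226 and 52 before it in Hk2, 36 before it in Slc2a1 and 229 before it in Egln3. Such a window holds ACGTG in 19 of the 27 list members with a RefSeq promoter (70.4%), a gene being counted if any of its promoters matched. The core was found for 21.8% of all 27025 genes with a promoter and for 28.3% of the 9924 tested genes that could be matched. Among DEG it was found for 33.7% of the higher and 26.9% of the lower ones. Of the 20 members that rose, 15 hold it, and of the 7 others with a promoter 4 do. The core is also contained in the E-box CACGTG, which was found for 25.0% of the genes of the ribosome biogenesis list with a promoter. It was found for 8.09% of all genes with a promoter, 11.3% of the tested genes and 14.4% of the higher DEG. A CArG box, the motif bound by SRF, was found for 5 of 17 genes of the contractile list with a promoter (29.4%), among them Myl9. It was found for 1.81% of all genes with a promoter and for 1.61% of the tested genes. These matches describe letters in a window and not binding. The lists were drawn up as hypoxia response genes and as SRF targets, so a high share of the motif can follow from membership alone. Whether it is a trait of this response was not tested.

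Most genes of ribosome production rose by small amounts. Of 36 tested 26 rose, 1 fell and 9 were not called, with a median of 0.37. Heatr1, needed for the transcription and processing of ribosomal RNA, was at 19.9, 22.0, 17.2, 25.6 and 26.2 FPM in control and 29.1, 28.7, 38.5, 37.1 and 47.4 FPM with EGF+U46619, with no overlap (0.69 ± 0.10). Tsr1 rose by 0.66 ± 0.09 and Ddx21 by 0.65 ± 0.09. Without set 3 the number of genes called as higher was 16, and without set 2 it was 18.

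Enzymes of cholesterol and fatty acid synthesis were higher in 17 and lower in 0 of 28 genes, with a median of 0.54. Fasn, the fatty acid synthase, rose from 185.7, 209.7, 101.4, 169.98 and 158.04 FPM to 448, 437, 216, 259 and 346 FPM, with no overlap (1.03 ± 0.11). The desaturase gene Scd2 rose by 0.97 ± 0.16. Culture set 4 differed from the others, since 14 of the 28 genes were above their control there, compared to 22 to 28 in sets 1, 2, 3 and 5. Of 33 genes of fatty acid and branched-chain amino acid breakdown 11 fell (5 without set 3), 1 rose and 21 were not called, Acaa2 falling by 0.74 ± 0.12 and Bcat1 rising by 0.85 ± 0.16. Of 33 nuclear genes of oxidative phosphorylation 0 rose and 4 fell (1 without set 3, 2 without set 1 or set 4). The share that fell (12.1%) was close to the 12.0% of all genes tested.

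Of 31 genes of the ATF4 response and amino acid supply 11 rose and 3 fell. Slc7a11, which imports cystine, was at 12.2, 7.60, 4.44, 8.64 and 3.08 FPM in control and 25.5, 23.6, 17.5, 21.4 and 10.6 FPM with EGF+U46619 (1.52 ± 0.14). Antioxidant genes split into members that rose and others that fell, in 7 and 12 of 29. Hmox1, the inducible heme oxygenase, rose from 109, 282, 243, 399 and 283 FPM to 357, 617, 866, 1222 and 406 FPM (1.35 ± 0.16). Gstm1, a glutathione transferase, fell from 223, 307, 472, 344 and 453 FPM to 78.7, 98.4, 116, 157.02 and 176.3 FPM, without overlap (-1.53 ± 0.12), and the secreted peroxidase gene Gpx3 by 1.71 ± 0.15. Txnip, which restrains glucose uptake and binds thioredoxin, fell from 413, 276, 469, 228 and 214 FPM to 197, 199, 206, 163.8 and 96.9 FPM (-0.87 ± 0.12), as did 5 more of the 20 FOXO factors and quiescence targets tested, while 3 rose (0 without set 1 or set 3, 1 without set 4) and 11 were not called.

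Genes of cell division did not respond alike in the 5 sets. Of 34 spindle and mitotic entry genes 8 rose and 0 fell, and of 46 DNA replication genes 3 rose and 0 fell (13 rose without set 1, 6 without set 2 and 1 without set 3 or set 5). The shares that rose were 23.5% and 6.52%, against 13.8% of all genes tested. The median log2 ratio of the spindle genes was -0.53 in set 1, 0.07 in set 2, 1.09 in set 3, 0.36 in set 4 and 1.20 in set 5. Only 2 of the 34 genes were above their control in set 1, whereas all 34 were in sets 3 and 5. Bub1, a mitotic checkpoint kinase, was at 9.15, 8.00, 5.87, 17.3 and 7.25 FPM in control and 8.65, 13.1, 23.9, 29.2 and 20.5 FPM with EGF+U46619 (0.94 ± 0.21). Without set 1 the number of spindle genes called as higher was 28, and it was 1 without set 3, 4 without set 4 and 3 without set 5. The replication genes had medians of -0.39, -0.12, 0.52, 0.13 and 0.69 in sets 1 to 5. Of 21 genes of G1 cyclins, CDK inhibitors and senescence 2 rose and 2 fell, and without set 1 the counts were 4 and 5.

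The remaining lists are given by their counts, to be read against 13.8% higher and 12.0% lower over all genes tested. With 6 of 19 higher and 3 lower, YAP and TEAD targets had a median of 0.05, and Ankrd1, at 44.0, 90.9, 52.1, 222 and 12.3 FPM in control and 109, 239, 302, 281 and 14.0 FPM with EGF+U46619, rose by 1.16 ± 0.24. Endoplasmic reticulum chaperones numbered 1 higher and 4 lower of 20 (2 lower without set 3 or set 4), PDGF and FGF ligands and receptors 2 and 5 of 16, RGS regulators 1 and 2 of 13 (0 lower without set 3, 4 without set 5), circadian output genes 3 and 1 of 18, the MYC network 4 and 1 of 12 (2 higher without set 1), polyamine genes 3 and 1 of 14 (1 higher without set 3 or set 4), and granins 1 and 1 of 5. Scg2, the granin that fell, dropped by 11.5-fold (-3.52 ± 0.29), while Fgf2 rose by 0.76 ± 0.17 and Fgf18 fell by 1.88 ± 0.29.

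How the combination related to its single stimuli was tested directly in the same 20 libraries. Alone against the same control cultures, U46619 gave 3112 DEG (21.3%) and EGF gave 8 (0.0547%, with 0.0342% higher and 0.0205% lower). These comparisons share their controls with the one above, so their values are set side by side only. The DEG of EGF+U46619 that were higher had median log2-fold changes of 0.40 with the combination, 0.35 with U46619 alone and 0.13 with EGF alone, and those that were lower -0.46, -0.39 and -0.15. Tested against EGF alone, the combination gave 2019 DEG (13.8%), 997 higher (6.81%) and 1022 lower (6.98%). Spp1 (3.07 ± 0.41), Il1rl1 (2.40 ± 0.28) and C4bp (2.30 ± 0.32) had among the largest increases, and Abca8a (-4.28 ± 0.40), Cxcl13 (-3.41 ± 0.44) and Lum (-3.03 ± 0.44) among the largest decreases.

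Tested against U46619 alone, the combination gave 1 DEG (0.00683%), Prl2c3. It was at 70.8, 75.8, 55.7, 217 and 19.2 FPM with U46619 alone, below its level with EGF+U46619 in all 5 sets, and the difference was 0.83 ± 0.13 on the log2 scale (FDR = 0.0404). It lost its call whichever of the 5 sets was left out. For 580 of 14634 genes both tools gave an unadjusted p under 0.05, and for 631 edgeR did. Both counts are below a share of 0.05, which such a threshold passes where no gene differs. DESeq2 alone called 9 genes. Spp1 was 1 of the 9, with 76.8, 122, 64.5, 59.0 and 109 FPM under EGF and 83.9, 257, 137, 247 and 129.6 FPM under U46619. In each set its level with EGF+U46619 was above that with U46619, and the difference of 2.15 had an interval of 2 SE from 1.37 to 2.93, with an FDR of 0.108 in edgeR. Prl2c2, Ank, Egr3, Esm1, Prkg2, Kcne4 and Slc1a6 were the others, named here after their values were seen. The first 5 of them were higher with the combination than with U46619 in 5 of 5 sets, and Kcne4 and Slc1a6 were lower in 5 of 5.

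For most genes the difference between the combination and U46619 was small against its error. Its median was 0.05 over the higher and -0.07 over the lower DEG, with a median SE of 0.10, and 1489 of 2017 higher and 1394 of 1759 lower DEG lay further from 0 with the combination, on whose values these DEG were selected. Tbxa2r differed from U46619 alone by -0.34 (interval of 2 SE from -0.64 to -0.04), Hmga2 by 0.49 (0.18 to 0.79) and Ogn by -0.33 (-1.11 to 0.45). None of these 3 was called, which does not show that the incubations acted alike on them.

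**Figure D3:**
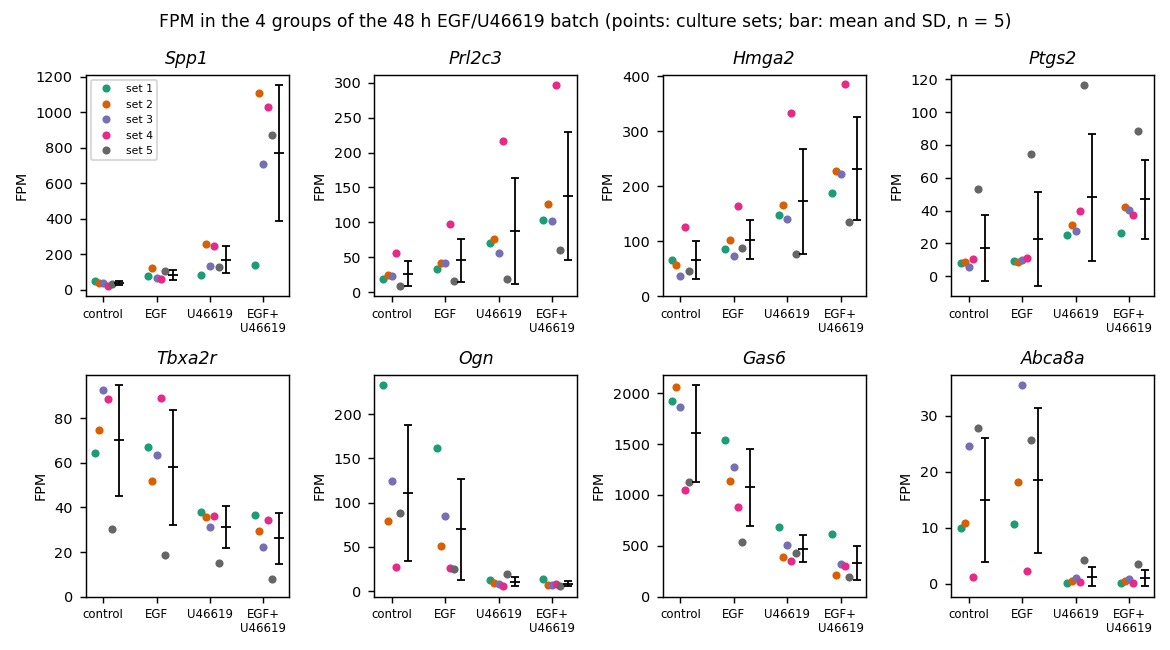
FPM of 8 genes in the control, EGF, U46619 and EGF+U46619 cultures of the 5 culture sets (coloured points), with the mean and SD of each group (n = 5). For Spp1, Prl2c3 and Hmga2 the EGF+U46619 culture lies above that with U46619 alone in every set.

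Cultures of 6 other mice had been incubated with EGF+U46619 for 24 h and sequenced in another batch, so time and batch cannot be told apart. They gave 4854 DEG (33.1% of 14653 tested), 2488 higher (17.0%) and 2366 lower (16.1%). Of the 3774 DEG of 48 h that were tested after 24 h, 3494 had the same sign (92.6%, compared to 75.7% of all genes tested at both times). In total, 2435 genes were DEG in the same direction at both times, 64.5% of these DEG of 48 h and 50.2% of those of 24 h. Spp1 rose in 6 of 6 mice after 24 h, by 3.23 ± 0.73, and Tbxa2r fell in 6 of 6 (-1.98 ± 0.33).

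Cell division and lipid synthesis genes differed in their counts between the times. After 24 h, 31 of 34 spindle genes and 44 of 46 replication genes were higher, with medians of 1.78 and 1.40. Of 28 genes of cholesterol and fatty acid synthesis 4 were higher, a share below the 17.0% of all genes tested then. Their median of 0.48 was close to the 0.54 after 48 h. The difference between the times was not tested for these lists. The mitotic gene Bub1 was at 0.359, 1.08, 1.10, 5.52, 6.03 and 9.24 FPM in the 24 h controls of mice 1 to 6. With EGF+U46619 it was at 60.9, 35.8, 44.3, 7.80, 11.0 and 7.39 FPM, so its rise lay mainly in mice 1 to 3. How evenly the lists rose over the 6 mice was not tested. Glycolysis genes numbered 17 higher after 24 h and 20 after 48 h, ribosome biogenesis genes 32 and 26, and small leucine-rich proteoglycans 7 and 9 lower.

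**Figure D4:**
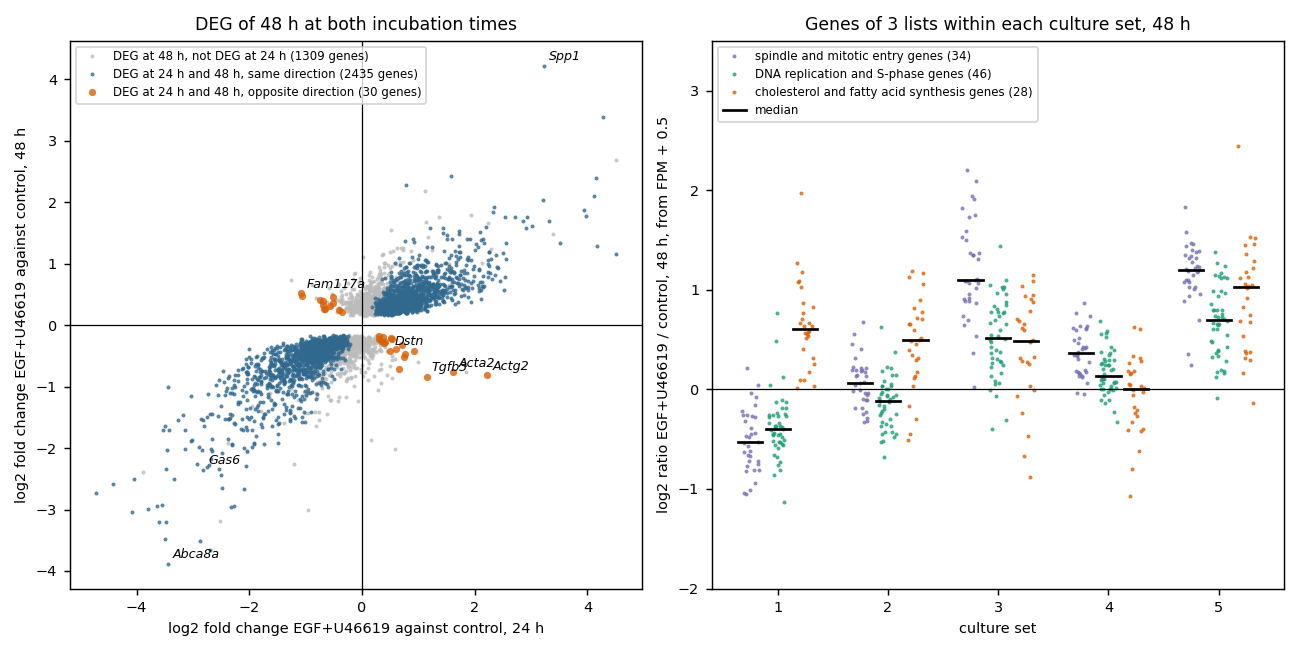
Left, log2-fold change of the DEG of 48 h after 24 h (x axis) and 48 h (y axis), coloured by whether they were DEG at 24 h in the same or in the opposite direction. Right, log2 ratio of EGF+U46619 to control within each culture set after 48 h for the genes of 3 lists, with medians as black lines. The spindle genes lie mostly below 0 in set 1 and above 0 in sets 3 and 5.

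The smooth muscle actin genes Acta2 and Actg2 changed in opposite directions at the 2 times. Only 30 genes were DEG at both times with opposite signs, 18 of them higher after 24 h and lower after 48 h. Acta2 was at 3335, 1329, 1149, 2300.5, 4949 and 2547 FPM in the control cultures of the 6 mice after 24 h and at 10654, 12297, 1631, 8177, 10723 and 5444 FPM with EGF+U46619 (1.62 ± 0.39, FDR = 0.00127). It was higher in all 6 mice after 24 h and lower in all 5 sets after 48 h. Actg2, a further smooth muscle actin, rose by 2.22 ± 0.41 after 24 h and fell by 0.82 ± 0.23 after 48 h, from 17.6, 213, 35.1, 97.0 and 3.99 FPM to 9.60, 161.4, 26.4, 37.6 and 1.59 FPM. Of the 20 genes of the contractile list 8 were higher and 2 lower after 24 h, against 3 and 10 after 48 h. Over all genes tested after 24 h, 17.0% were higher and 16.1% lower. Myh11 was not among the genes that reversed, since it was not called after 24 h (-0.28 ± 0.47). Dstn, an actin-severing protein, and the growth factor Tgfb3 were also higher after 24 h (0.49 ± 0.18 and 1.15 ± 0.40) and lower after 48 h (-0.41 ± 0.11 and -0.84 ± 0.15). These 2 genes were chosen for their reversal.

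**Figure D5:**
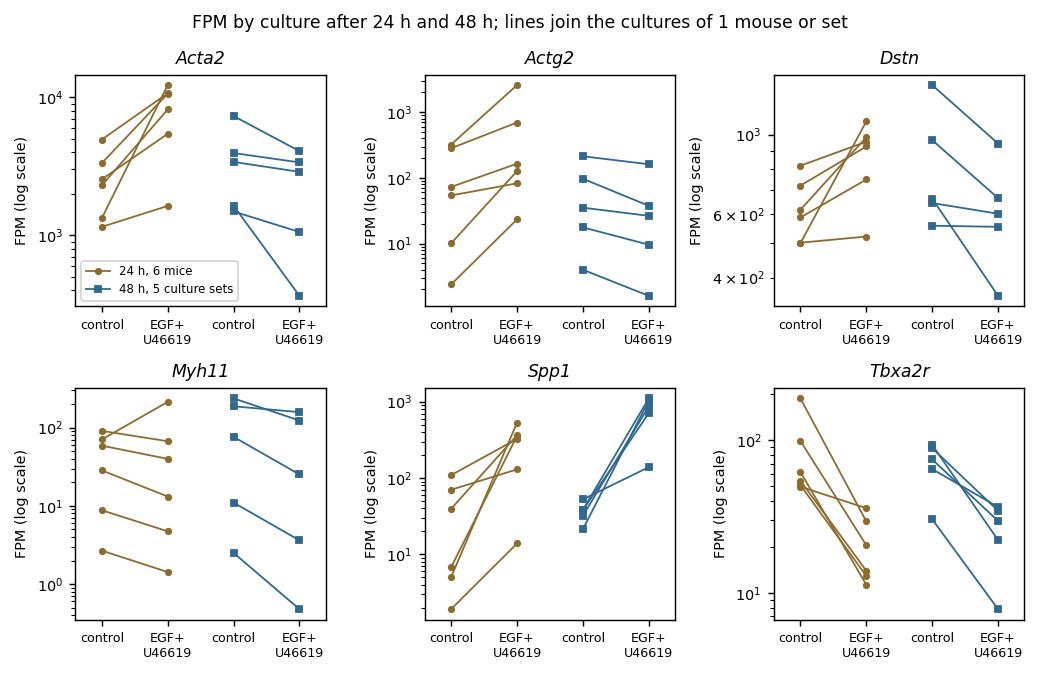
FPM on a log scale of 6 genes in control and EGF+U46619 cultures after 24 h (6 mice, circles) and 48 h (5 culture sets, squares), with lines joining the cultures of 1 mouse or set. Lines of Acta2, Actg2 and Dstn run upwards after 24 h and downwards after 48 h, those of Spp1 upwards and those of Tbxa2r downwards at both times.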

How the data were processed

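RNA was sequenced from primary aVSMC of mice, 82 libraries in all. The authors aligned reads with HISAT2 2.1.0 to mm10 and deposited whole-number counts per Ensembl gene from featureCounts, with reads of several alignments counted for each, so near-identical copies cannot be separated. Strandedness is not given in the sources used here. All columns were mapped to samples (0 left out).

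The compared cultures and all gene lists (41 of pathways, 8 of cell markers) were chosen with earlier results of these data known. Counts were tested in R 4.3.3 with edgeR 4.0.16 (TMM, filterByExpr, quasi-likelihood F-test, Benjamini-Hochberg FDR) and DESeq2 1.42.0. The 20 libraries of all 4 groups of the batch were fitted together, with the culture set as a block. FPM are counts per 1000000 of the TMM-scaled library size. The SE of a log2-fold change is its size divided by the square root of edgeR's F, and intervals are 2 SE to each side. DEG needed an FDR under 0.05 by each tool and 5 or more FPM on average in either group. The replicate numbers paired the cultures: deviations from the group means correlated above 0.1 in 30 of 30 pairs of the same set (lowest 0.307, median 0.772), compared to 3 of 16 pairs of different sets with the same mouse label (median 0.056). Deviations from a group mean push unrelated sets below 0. Control cultures with different labels correlated between -0.501 (sets 1 and 5) and 0.010 (sets 3 and 4). Whether sets 1 and 4 share a mouse is not settled by these values. The 42 libraries of 24 h were fitted likewise with the mouse as the block. No libraries of 1 group were alike within sampling noise (lowest chi-square per degree of freedom 42.9 over 40 pairs). That sets come from separate isolates rests on the methods. The pipeline was tested on simulated data.

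Named genes were the 15 DEG with the largest change in each direction that had the same direction in every set, up to 5 DEG per list and up to 5 per direction in each comparison with a single stimulus, beside genes fixed by name. Ndrg1, Slc20a1, the genes of the neighbour search, the reversed genes other than Acta2 and Actg2, and the genes that DESeq2 alone called fall outside this rule and were named after their values were seen. A few named genes are not reported here. Ratios within a set used FPM + 0.5. Promoters (RefSeq, 300 bases) were matched by symbol for 9924 tested genes. Tables and figures were made in Python 3.11.15 (Matplotlib 3.10.9, SciPy 1.17.1, pandas 2.3.3, NumPy 2.4.6). Alternatives changed the tool, scaling, filter, minimum FPM, block, samples and batch, or left out 1 set at a time.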

Additional observations from a re-analysis of the deposited data

Results flagged for a closer look

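Among 39 genes tested in the control and EGF+U46619 cultures of 48 h (78 groups of 5), 19 groups had 1 culture far from the other 4 by Dixon's criterion at 0.71. It flags about 1 of 20 groups of normally distributed values, but was applied here to FPM without a log scale. Most of the genes were chosen for large changes and all share the same cultures, so 19 of 78 cannot be set against that rate. Of the 19, 6 were in the EGF+U46619 culture of set 1 and 4 in that of set 2, and every other culture had at most 2. In set 1 with EGF+U46619 the stray values were 209.6 FPM for Eln, 24.4 FPM for Id4, 22.4 FPM for Aspn, 13.4 FPM for Ogn and 4.80 FPM for Cxcl13, each the highest of the group, and 5.94 FPM for Nipal1, the lowest. In set 2 they were 102 FPM for Star, 58.6 FPM for Cd53, 494 FPM for Gapdh and 8959.7 FPM for Eef2 with EGF+U46619, and 17.2 FPM for Cd53 and 6693 FPM for Eef2 in control. In set 5 they were 53.3 FPM for Ptgs2 and 8.24 FPM for Crct1 in control, and 88.3 FPM for Ptgs2 and 3.55 FPM for Abca8a with EGF+U46619. In set 4 EGF+U46619 reached 297 FPM for Prl2c3, and in set 3 control reached 499 FPM for Fbln7 and EGF+U46619 3.34 FPM for Scg2.

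Of the genes that were DEG at both times with opposite signs, 9 moved one way in all 5 sets after 48 h and the other way in all 6 mice after 24 h. Fam117a (0.52 after 48 h, -1.08 after 24 h) and Mknk2 (0.25, -0.40) were higher after 48 h and lower after 24 h on the log2 scale. Aida (-0.18, 0.31), Adk (-0.20, 0.37), Pop4 (-0.23, 0.52), Pdia5 (-0.27, 0.41), Dstn (-0.41, 0.49), Acta2 (-0.77, 1.62) and Actg2 (-0.82, 2.22) were lower after 48 h and higher after 24 h. The difference between the times was not tested, and time and sequencing batch cannot be told apart.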

How the results depend on the processing

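The 3776 DEG of EGF+U46619 against control numbered 369 with no replicate block, 2222 with the mouse label in place of the pairing by culture set, 1658 when only the 2 groups entered the fit, and 2171 (set) or 997 (mouse label) with both 48 h batches. Leaving out 1 set gave 2129 (without set 3) to 3875. Tool, scaling, filter and minimum FPM left the count between 3222 and 4516. Against EGF alone, the 2019 DEG numbered 27 with no replicate block, 797 with the mouse label and 699 with both batches and the mouse label, and leaving out 1 set gave 1034 (without set 3) to 2116, with 1246 without set 1 and 1264 without set 4. Against U46619 alone, the 1 DEG became 9 by DESeq2 alone, 2 with no minimum FPM, 11 with all genes with a count, 62 with only the 2 groups, and 0 with no replicate block, with at least 10 counts in every library, with the mouse label, and with both batches under either block. Leaving out 1 set gave 0 (without set 2, 3 or 5) to 1 (another gene, and a lower one without set 4), so that Prl2c3 lost its call each time. The 4854 DEG of 24 h numbered 1826 with no replicate block and 3540 to 5063 without 1 mouse. Of 218 named genes, 45 kept their side of the threshold without the pairing and the others lost their call. With both batches and the mouse label 113 lost it, and Itga6 (-0.13) and Hbegf (-0.067) changed sign. The cause of these changes was not tested. With 5 sets, a gene that was not called is not shown to be unchanged, and genes on chromosomes 9, X, Y and MT were not analysed here.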
